A study of Arabidopsis thaliana with 26 samples.

Results

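ATG8H (AT3G06420) and the other genes whose symbol in the array annotation begins with ATG and a digit were followed in Arabidopsis thaliana T87 cells, an undifferentiated suspension line, after treatment with 3 plant hormones alone or in pairs. The rule found 8 of the 13286 genes that have a probe set of their own (the arrays carry 22746 probe sets in all), each with 1 probe set: ATG8H, ATG8B, ATG8C, ATG8D, ATG8E, ATG8F, ATG8G and ATG3. The rule reads symbols and no measured value, but it was chosen with earlier results of these data known. All 8 were tested, with no filter on low values. All but ATG3 belong to the ATG8 family.

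Autophagy is the bulk degradation pathway in which a double membrane closes around cytoplasm or a selected cargo and delivers it to the vacuole. ATG8 is a small ubiquitin-like protein that is attached to the lipid phosphatidylethanolamine of that membrane, where it serves membrane growth and binds cargo receptors. ATG7 and ATG3 act as its E1-like and E2-like enzymes. Plants carry several ATG8 genes. In most of them the protease ATG4 must first trim the end of the protein, while ATG8H and ATG8I are made with the reactive glycine already at the end. Transcripts of ATG genes are known to rise under carbon and nitrogen starvation and in senescence.

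The treatments were ABA+JA, ABA+SA, ABA alone (abscisic acid, 25 µM), JA alone (methyl jasmonate, 100 µM), SA alone (salicylic acid, 300 µM) and, as the control, 0.6% ethanol (EtOH), and cells were taken after 3 h and after 24 h. ABA acts in drought and osmotic stress, SA in defence against pathogens that feed on living tissue, and JA in wound responses and defence against chewing insects. There were 12 groups of 2 arrays, or 3 arrays in both groups of ABA alone, and all cells came from the same line, with no genetic change named in the labels. The labels give no ethanol dose for cells that received hormones. Nor do they call the replicates separate cultures, so the p-values may reflect no more than technical spread among the arrays. In such bulk RNA, fewer cells with a transcript and less of it per cell cannot be told apart.

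On 4 arrays, those of both pairs at 3 h, the title contradicts the source name and the treatment text: where one names ABA+SA the other names ABA+JA. The arrays were grouped by title. Under that grouping JRG21, a JA-induced oxygenase gene, averaged 10.9 ± 0.63 log2 units in ABA+JA cells and 3.00 ± 0.087 in ABA+SA cells at 3 h, and UGT76B1, an SA-related glucosyltransferase gene, averaged 8.47 ± 0.61 and 11.7 ± 0.31 in the same order (SD, n = 2 each). The UGT76B1 mean of ABA+JA cells thus lay below the 10.8 of SA cells at 3 h, but above the 5.997 of JA cells, the 6.01 of ABA cells and the 5.603 of EtOH cells. JRG21 averaged 11.6 in JA cells, 3.35 in SA cells, 3.41 in ABA cells and 2.99 in EtOH cells at 3 h. LTI30, a dehydrin gene that ABA induces, differed between the JA replicates of 3 h, at 5.81 and 10.1, beside 12.1 to 12.8 in ABA cells and 3.255 and 3.33 in EtOH cells. Replicates 2 and 3 of ABA at 3 h differed by less than any other replicate pair (r = 0.9975, against 0.9458 to 0.9885 for the others) and were counted as 1 sample, their mean. Of the organ markers looked at, EXPA7 of root hairs was the one measured under a name, and its group means lay between 3.18 and 4.11.

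ATG8H was highest when ABA was given together with a second hormone for 3 h, and no other ATG gene had so wide a range. Its 12 group means spanned 5.28 log2 units, and 1.22% of all probe sets had a wider span. At 3 h the ABA+JA arrays read 9.15 and 8.97 log2 units, the ABA+SA arrays 8.82 and 8.93, and the EtOH arrays 5.05 and 4.83. With one hormone at 3 h the arrays read 5.42, 6.62 and 6.71 for ABA, 6.35 and 6.47 for JA, and 5.69 and 4.99 for SA. Thus the 4 arrays with combined hormones lay more than 2 log2 units above every other array at 3 h, the ABA and JA arrays lay above both EtOH arrays, and the SA arrays overlapped the EtOH arrays.

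At 24 h the ATG8H probe set read 4.90 and 5.38 with ABA+JA, 5.55 and 4.91 with ABA+SA, and 6.17, 5.32 and 5.90 with ABA alone. The arrays of JA alone read 4.75 and 3.89, those of SA alone 4.98 and 3.95, and the EtOH arrays 4.19 and 3.37. Every array with ABA, alone or in a pair, lay above both EtOH arrays of that time, and the arrays of JA and of SA overlapped them. Between 28.3% and 39.4% of all probe sets read lower than ATG8H on the EtOH arrays at 24 h, and between 92.3% and 94.1% on the 4 combined arrays at 3 h. The deposited values carry no detection call, so whether the lowest values lay above background was not tested.

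**Figure D1:**
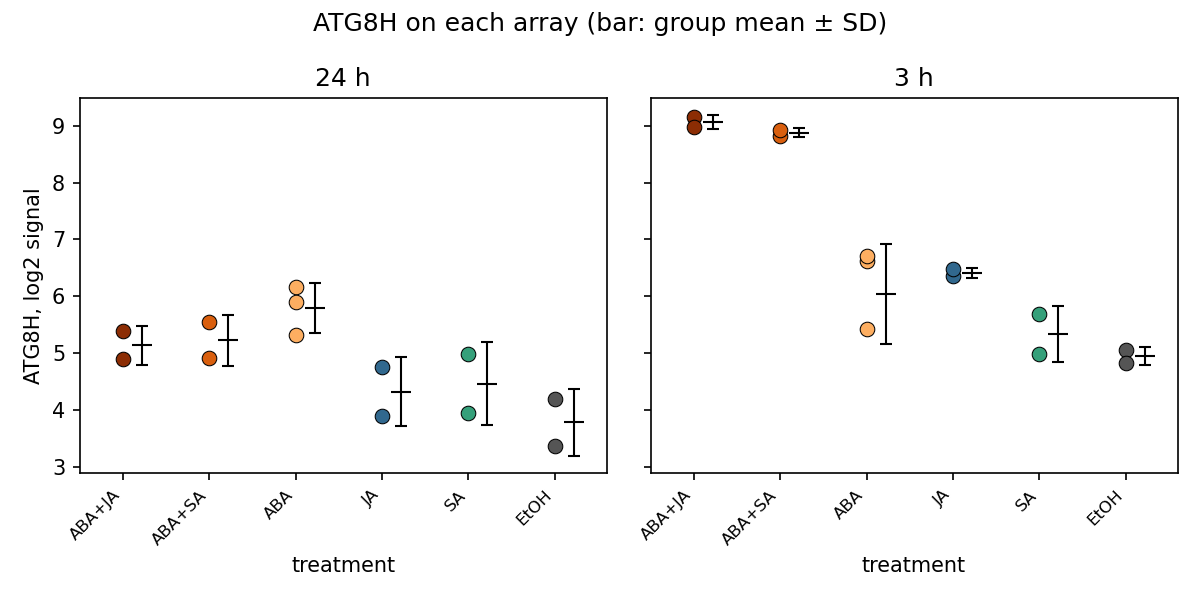
ATG8H, log2 signal (vertical axis), on each array (points) by treatment (horizontal axis) at 24 h (left) and 3 h (right), with group mean and SD (bars; n = 2, and n = 3 for ABA at 24 h; in ABA at 3 h the bar counts the near-identical replicates 2 and 3 as 1). The 4 arrays with combined hormones at 3 h lie between 8.82 and 9.15, and all other arrays lie between 3.37 and 6.71.

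Ordered by mean, ABA+JA at 3 h (9.06 ± 0.13) and ABA+SA at 3 h (8.88 ± 0.076) came first (SD, n = 2 each). A gap of 2.47 log2 units set them apart from the rest. The lower ABA+JA array read 8.97 and the higher ABA+SA array 8.93. The difference between these 2 groups was not tested, and their names rest on the titles. JA at 3 h (6.41), ABA at 3 h (6.05), ABA at 24 h (5.79), SA at 3 h (5.34), ABA+SA at 24 h (5.23), ABA+JA at 24 h (5.14) and EtOH at 3 h (4.95) followed. SA at 24 h (4.47), JA at 24 h (4.32) and EtOH at 24 h (3.78) stood at the low end. From JA at 3 h downward the arrays of each group overlapped those of the next, so that the order of neighbours is not resolved by their spread.

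In limma's fit across all probe sets, ATG8H rose with both pairs of hormones at 3 h. The change against EtOH was 4.12 ± 0.44 log2 units with ABA+JA, which is 17.3-fold (adjusted p = 9.24e-06), and 3.93 ± 0.44 with ABA+SA, which is 15.3-fold (adjusted p = 2.03e-05; estimate ± SE, n = 2 each). A higher change than that of ATG8H was seen in 0.435% of probe sets with ABA+JA and 0.58% with ABA+SA. With single hormones at 3 h the change was 1.10 ± 0.44 for ABA (adjusted p = 0.109), 1.47 ± 0.44 for JA (adjusted p = 0.42) and 0.39 ± 0.44 for SA (adjusted p = 1), none of which passed the threshold of 0.05. Both combined results share the EtOH arrays with the single ones. With replicates 2 and 3 of ABA at 3 h kept as separate arrays, the ABA change was 1.31 (adjusted p = 0.0329), and without ABA replicate 1 it was 1.72 (adjusted p = 0.0416).

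Set directly against each single hormone at 3 h, ATG8H was higher in every pairing. ABA+JA exceeded ABA by 3.01 ± 0.44 log2 units (adjusted p = 1.86e-04) and JA by 2.65 ± 0.44 (adjusted p = 5.22e-04). ABA+SA exceeded ABA by 2.83 ± 0.44 (adjusted p = 4.98e-04) and SA by 3.54 ± 0.44 (adjusted p = 6.74e-05). These 4 calls and both calls against EtOH were kept in all 10 other settings and with each of the 26 arrays left out in turn. Under the source-name grouping the 2 pairs of arrays trade names, and the change against EtOH becomes 3.93 for ABA+JA and 4.12 for ABA+SA.

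The sum of the ABA and SA changes at 3 h fell short of the change with both by 2.44 ± 0.63 log2 units (interaction in the limma fit, adjusted p = 0.044). That call was lost in the fit to the 4 groups alone (adjusted p = 0.0743), with array weights (adjusted p = 0.0653) and without many single arrays. The estimate then ran between 1.82 without ABA at 3 h replicate 1, where adjusted p was highest at 0.223, and 2.78 without SA at 3 h replicate 1. For ABA and JA at 3 h the interaction was 1.54 ± 0.63 (adjusted p = 0.147), and at 24 h it was -1.25 ± 0.60 for SA and -1.19 ± 0.60 for JA (adjusted p = 0.485 and 0.357).

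At 24 h ABA alone was the treatment with a called change of ATG8H, 2.01 ± 0.40 log2 units or 4.03-fold above EtOH (limma, adjusted p = 0.00255, n = 3 and 2). Without EtOH replicate 2, the lowest of all 26 arrays for ATG8H, the change was 1.60 and the call was lost (adjusted p = 0.0614). ABA+SA gave 1.45 ± 0.44 (adjusted p = 0.0904) and ABA+JA 1.36 ± 0.44 (adjusted p = 0.069), against 0.69 ± 0.44 for SA (adjusted p = 1) and 0.54 ± 0.44 for JA (adjusted p = 0.536). ABA+SA minus ABA was -0.56 ± 0.40 and ABA+JA minus ABA -0.65 ± 0.40 (95% interval -1.42 to 0.29 and -1.51 to 0.20), and neither passed the test. Between the control groups, ATG8H at 24 h minus 3 h was -1.16 ± 0.44 (adjusted p = 0.11).

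The response to the pairs was smaller at 24 h than at 3 h. The difference of the 2 changes was -2.76 ± 0.63 log2 units for ABA+JA (limma, adjusted p = 0.0115) and -2.49 ± 0.63 for ABA+SA (adjusted p = 0.035). Without EtOH at 24 h replicate 1 these were -2.34 (adjusted p = 0.0631) and -2.07 (adjusted p = 0.157), and the ABA+JA call was also lost without ABA+JA at 24 h replicate 1 (-2.51, adjusted p = 0.051). The ABA+SA call was lost too without either EtOH array at 3 h, either ABA+SA array at 3 h, or ABA+SA replicate 2 at 24 h. For ABA alone the same difference was 0.91 ± 0.60 (adjusted p = 0.433). The ABA-induced LTI30 averaged 4.57 log2 units with ABA+SA at 24 h (arrays 3.60 and 5.54) and 5.17 with ABA+JA (3.87 and 6.48). At that time it averaged 9.71 with ABA alone and 3.80 with EtOH (3.70 and 3.90). The lower array of each pair thus lay no higher than the upper EtOH array. Whether this bears on the ATG8H results of the pairs at 24 h was not tested.

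The other ATG8 genes did not share the size of this change. With ABA+SA at 3 h, 2 of the 8 genes were called, ATG8H and ATG8B, while 15.6% of all probe sets were called, and with ABA+JA at 3 h 1 of 8 was called, ATG8H, while 22.4% of all probe sets were called. The median change of the 8 was 0.44 with ABA+SA and 0.61 with ABA+JA, beside -0.02 and 0.06 over all probe sets. With ATG8H left out the medians were 0.30 and 0.55. In single-hormone cells at 3 h, 3 of 8 were called with ABA, all lower (background 14.1%), and 0 of 8 with SA (0.136%) or JA (0.343%). For SA and JA limma gave 1 gene each an unadjusted p under 0.05, beside 3.26% and 5.19% of all probe sets. The grid of changes shows ATG8H apart from the other genes in both columns of combined hormones at 3 h.

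**Figure D2:**
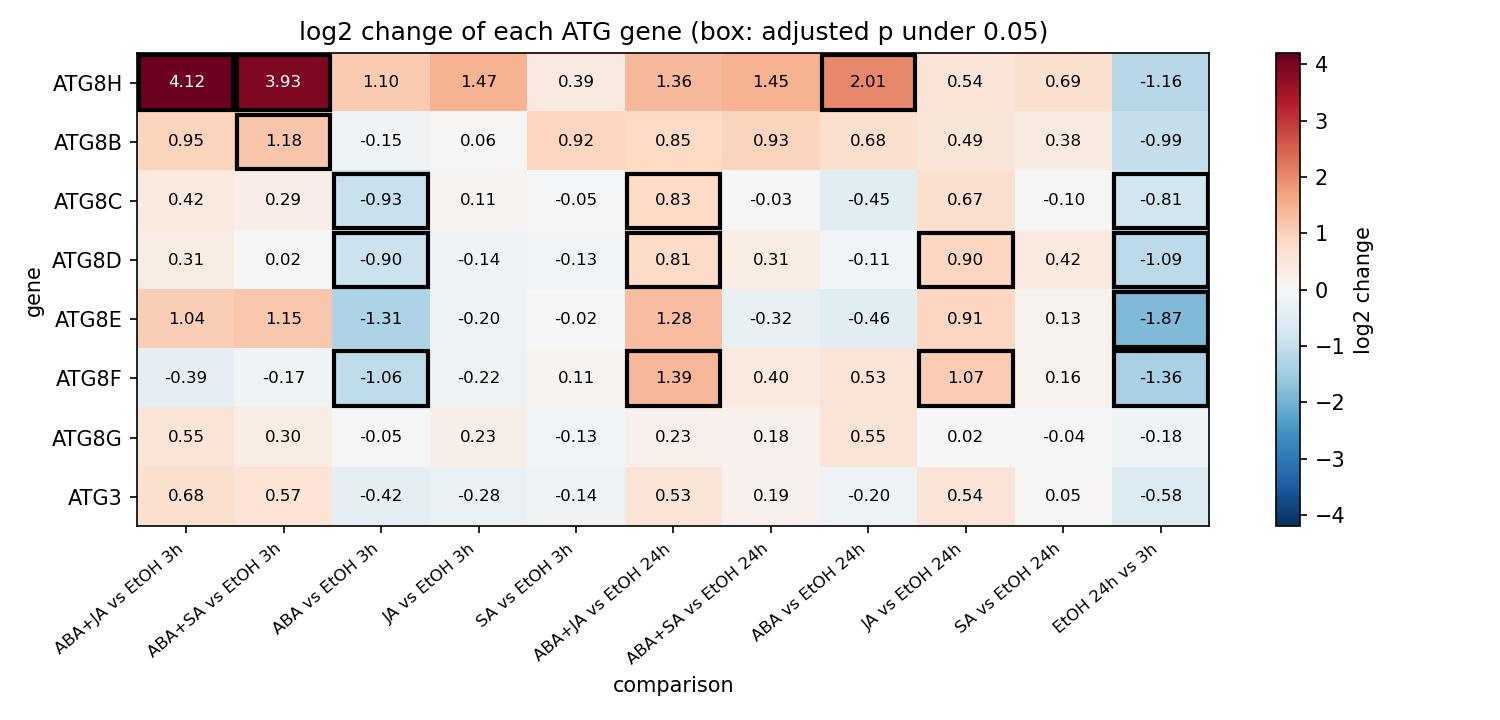
Change in log2 units (colour and printed value) of each ATG gene (rows) in 10 comparisons of a hormone with EtOH at its own time and in EtOH at 24 h against 3 h (columns), with called changes boxed. ATG8H reaches 4.12 and 3.93 with the combined hormones at 3 h, while its largest change with one hormone is 2.01, for ABA at 24 h.

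ATG8B read 8.90 and 8.87 log2 units in ABA+SA cells at 3 h, 8.92 and 8.33 in SA cells, and 8.06 and 7.36 in EtOH cells. The ABA+SA and SA arrays lay above both EtOH arrays. The ABA+SA change was 1.17 ± 0.36 (limma, adjusted p = 0.036), and the SA change of 0.92 ± 0.36 did not pass (adjusted p = 1). The call was lost without EtOH replicate 2 (0.82, adjusted p = 0.305), without ABA+SA replicate 1 (1.16, adjusted p = 0.144) and without ABA+SA replicate 2 (1.19, adjusted p = 0.128). Its change with ABA+JA was 0.95 ± 0.36 (adjusted p = 0.0713).

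ATG8E had the second widest range of the 8, with group means 3.47 log2 units apart. At 3 h it read 9.15 and 9.18 with ABA+JA, 9.30 and 9.24 with ABA+SA, 6.43, 7.19 and 7.22 with ABA alone, and 8.10 and 8.15 with EtOH. The combined arrays thus lay above, and the ABA arrays below, both EtOH arrays. Against EtOH none of the 3 changes passed the test: 1.04 ± 0.53 with ABA+JA, 1.15 ± 0.53 with ABA+SA and -1.31 ± 0.53 with ABA (limma, adjusted p = 0.183, 0.183 and 0.114). Set against ABA alone, ATG8E was 2.35 ± 0.53 higher in ABA+JA cells (adjusted p = 0.00499) and 2.45 ± 0.53 higher in ABA+SA cells (adjusted p = 0.00488). Both calls were lost without ABA replicate 1, where the differences were 1.96 and 2.06 (adjusted p = 0.0681 and 0.0769).

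ATG8C, ATG8D and ATG8F were the genes called lower with ABA alone at 3 h, where ATG8E changed by -1.31 ± 0.53 without a call. ATG8D read 6.46, 6.24 and 6.23 with ABA and 6.998 and 7.49 with EtOH, ATG8C 8.11 to 8.93 with ABA and 9.30 and 9.56 with EtOH, and ATG8F 9.31 to 10.1 with ABA and 10.6 and 10.9 with EtOH. In all 3 genes every ABA array lay below both EtOH arrays. The changes were -0.90 ± 0.23 for ATG8D, -0.93 ± 0.25 for ATG8C and -1.06 ± 0.27 for ATG8F (limma, adjusted p = 0.014, 0.0193 and 0.0154). Each call depended on single arrays. Without EtOH replicate 2 all 3 calls were lost, with -0.65 for ATG8D, -1.055 for ATG8C and -0.94 for ATG8F (adjusted p = 0.157, 0.0543 and 0.113). Without EtOH replicate 1 ATG8C stood at -0.80 (adjusted p = 0.146) and ATG8F at -1.18 (adjusted p = 0.0536), and without ABA replicate 1 at -0.53 (adjusted p = 0.254) and -0.67 (adjusted p = 0.204).

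Against ABA alone at 3 h, 7 of the 8 genes were called in ABA+SA cells, all higher (background 18%), and 6 of 8 in ABA+JA cells, all higher (background 21.5%). The median change of the 8 was 1.10 and 1.15 log2 units, beside -0.05 and 0.03 over all probe sets. ATG8G was the gene not called in either, and ATG8F was called with ABA+SA (0.89 ± 0.27, limma adjusted p = 0.0312) and not with ABA+JA. ATG3 was higher by 0.99 ± 0.25 with ABA+SA (adjusted p = 0.0121) and by 1.10 ± 0.25 with ABA+JA (adjusted p = 0.00528). Without ABA replicate 1 the calls of ATG3 (0.51), ATG8B (1.195), ATG8C (0.82) and ATG8F (0.50) in ABA+SA cells were lost, as were those of ATG3 (0.62) and ATG8B (0.97) in ABA+JA cells. Other losses were those of ATG3 (0.84), ATG8D (0.78), ATG8B (1.34) and ATG8F (0.74) without ABA+SA replicate 2, of ATG8B (1.31) and ATG8F (1.03) without ABA+SA replicate 1, and of ATG8B without ABA+JA replicate 1 (0.98) or replicate 2 (1.22). Over the alternatives the counts ran between 2 and 7 for ABA+SA and between 3 and 8 for ABA+JA, and the same ABA arrays enter both. Against SA alone 1 of 8 was called in ABA+SA cells (background 12.6%), and against JA alone 2 of 8, ATG8H and ATG3, in ABA+JA cells (background 20.3%). The call of ATG3 against JA was lost without ABA+JA replicate 1 or either JA array (0.89 to 0.97, adjusted p = 0.0533 to 0.0815).

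The interaction of ABA with JA at 3 h was called for 4 of the 8 genes, all positive (background 8.04%), and that of ABA with SA for 1 of 8, ATG8H (background 3.11%). Limma gave 6 and 5 genes an unadjusted p under 0.05, beside 22.7% and 18.9% of all probe sets. At 24 h the interactions with JA and SA were called for 0 of 8 (background 1.94% and 0.62%). There limma gave 0 genes an unadjusted p under 0.05 in either, beside 15.5% and 10.5% of all probe sets. The 4 were ATG8E (2.55 ± 0.76 log2 units), ATG3 (1.37 ± 0.36), ATG8D (1.35 ± 0.32) and ATG8C (1.24 ± 0.35), with limma adjusted p of 0.048, 0.0263, 0.0164 and 0.0384. Their estimates with SA were near these, 2.47 ± 0.76, 1.13 ± 0.36, 1.04 ± 0.32 and 1.26 ± 0.35 in the same order, and did not pass (adjusted p = 0.0867, 0.0966, 0.0862 and 0.0613). With the combined arrays grouped by source name the counts were 2 with JA and 4 with SA, and over all alternatives they ran between 0 and 4 for each. A difference between the JA and SA interactions was not tested. Here the change with both hormones exceeded the sum of a negative change with ABA and a small change with JA. Leaving out 1 array of the 4 groups kept the call of ATG8D in 7 of 9 fits, ATG3 in 3, ATG8C in 2 and ATG8E in 2. Each count includes the 2 fits that left out 1 of the near-identical ABA arrays, where the other stayed in. Without ABA replicate 1 the estimates were 2.16 for ATG8E, 0.89 for ATG3 and 0.85 for ATG8C (adjusted p = 0.171, 0.11 and 0.163), and ATG8D was lost without EtOH replicate 2 (1.10, adjusted p = 0.0859) or JA replicate 1 (1.24, adjusted p = 0.0525). The calls of ATG8C and ATG8E were also lost without any 1 of the EtOH, JA and ABA+JA arrays, and that of ATG3 without any of these but ABA+JA replicate 2. That of ATG8E was lost as well without several arrays outside the 4 groups, with its estimate unchanged.

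**Figure D3:**
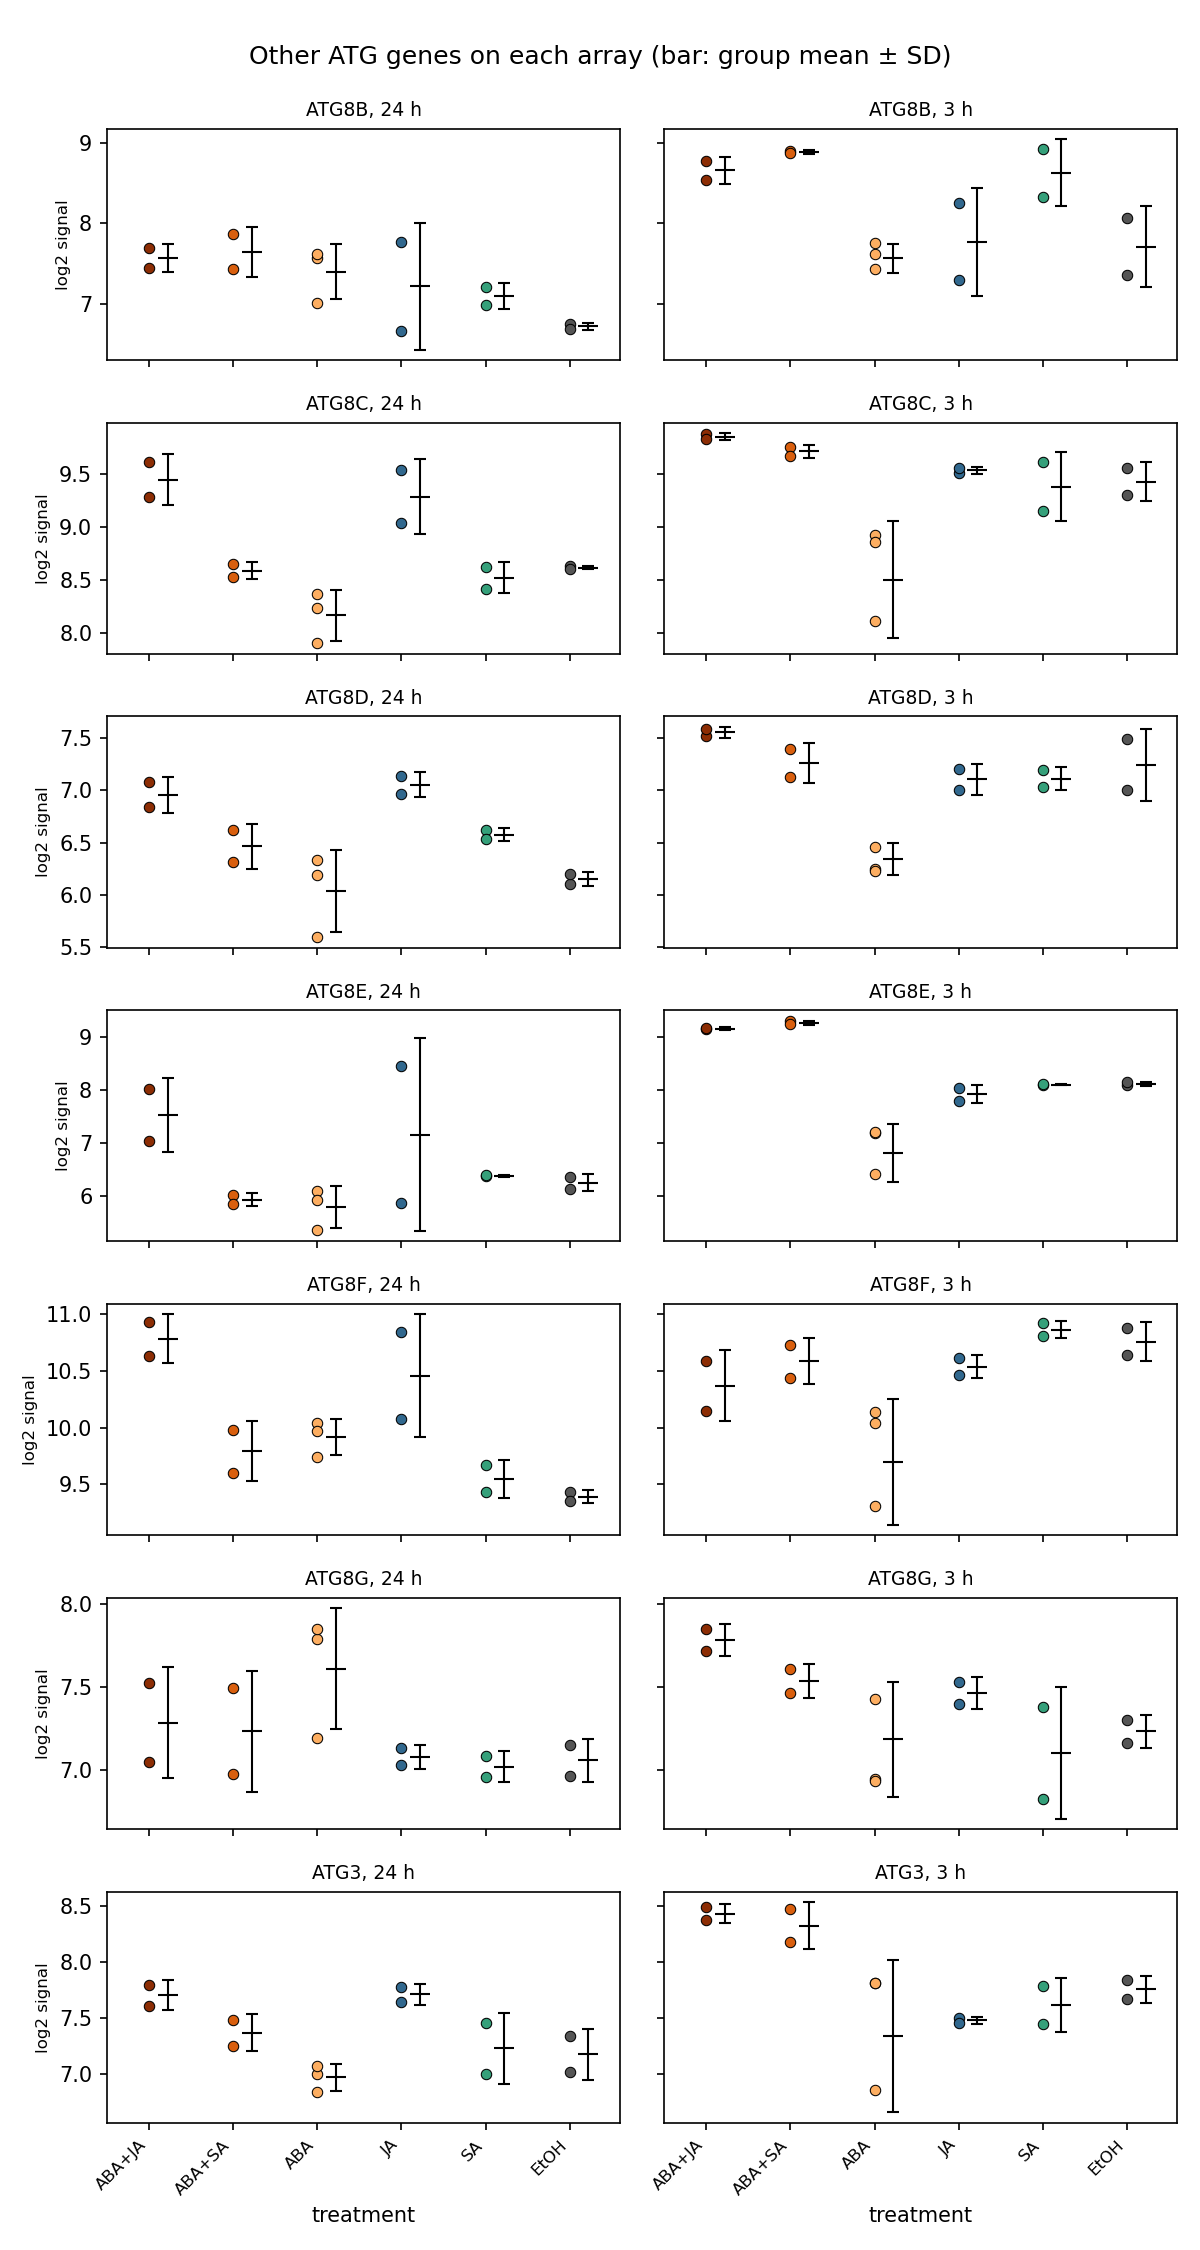
Log2 signal (vertical axes, a scale of its own for each gene) of the other ATG genes on each array (points) by treatment at 24 h (left) and 3 h (right), with group mean and SD (bars, n as in the plot of ATG8H). ATG8E lies at 9.15 to 9.30 on the combined arrays at 3 h and at 5.36 to 6.11 on the ABA arrays at 24 h, and its JA arrays at 24 h lie apart, at 8.45 and 5.88.

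In EtOH cells 4 of the 8 ATG genes, ATG8E, ATG8F, ATG8D and ATG8C, were lower at 24 h than at 3 h. ATG8E read 6.37 and 6.15 at 24 h, against 8.10 and 8.15 at 3 h, and ATG8F 9.43 and 9.35 against 10.6 and 10.9. No array of one time reached those of the other in either gene. No gene was called higher (background of calls either way 10.3%). Limma gave 7 of the 8 an unadjusted p under 0.05, beside 23.8% of all probe sets. The median change was -1.04 log2 units, beside -0.05 over all probe sets. The 4 were ATG8E (-1.87 ± 0.53, adjusted p = 0.0352), ATG8F (-1.37 ± 0.27, adjusted p = 0.00601), ATG8D (-1.09 ± 0.23, adjusted p = 0.00713) and ATG8C (-0.81 ± 0.25, adjusted p = 0.0465). Leaving out 1 of the 4 EtOH arrays kept ATG8D and ATG8F in 2 of 4 fits each and ATG8C and ATG8E in none, with changes of -0.84 to -1.33, -1.25 to -1.49, -0.68 to -0.94 and -1.76 to -1.98, and without EtOH at 3 h replicate 2 none of the 8 genes was called. ATG8D was also lost without replicate 1 of 24 h (-1.04, adjusted p = 0.0531) and ATG8F without replicate 2 of 24 h (-1.33, adjusted p = 0.0506).

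At 24 h most calls against EtOH came from cells given JA, alone or with ABA. With ABA+JA 3 of 8 were called, all higher (background 8.7%, median 0.84 beside 0.05 over all probe sets), and with JA 2 of 8, both higher (background 4.01%). With ABA 1 of 8 was called, ATG8H (background 17.5%), and with ABA+SA or SA 0 of 8 (background 3.96% and 0.352%). For ABA+SA and SA limma gave 2 and 0 genes an unadjusted p under 0.05, beside 12.3% and 2.36% of all probe sets. ATG8F read 10.9 and 10.6 with ABA+JA, 10.8 and 10.1 with JA, and 9.43 and 9.35 with EtOH. Its change was 1.39 ± 0.27 with ABA+JA (adjusted p = 0.00508), called in each of the 4 fits that left out an array of these groups, and 1.07 ± 0.27 with JA (adjusted p = 0.0369). ATG8D changed by 0.81 ± 0.23 with ABA+JA (adjusted p = 0.0353) and 0.90 ± 0.23 with JA (adjusted p = 0.0345), and ATG8C by 0.83 ± 0.25 with ABA+JA (adjusted p = 0.0467). Without JA replicate 1 the JA changes of ATG8F and ATG8D were 0.68 and 0.82 (adjusted p = 0.328 and 0.211), and both calls were also lost without either EtOH array. With ABA+JA the calls of ATG8C and ATG8D were lost without any 1 of the 4 arrays compared, at 0.66 to 0.997 for ATG8C (adjusted p up to 0.249) and 0.68 to 0.93 for ATG8D (adjusted p up to 0.187).

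Set against ABA alone at 24 h, 4 of 8 genes were called in ABA+JA cells, all higher (background 8.81%). ATG8E was higher by 1.74 ± 0.49 log2 units, ATG8C by 1.28 ± 0.22, ATG8D by 0.92 ± 0.21 and ATG8F by 0.87 ± 0.25 (limma, adjusted p = 0.0356, 0.00219, 0.0105 and 0.0385). All 4 calls were lost without ABA+JA replicate 1, where ATG8E stood at 1.25, ATG8C at 1.11, ATG8D at 0.80 and ATG8F at 0.71 (adjusted p = 0.372, 0.0527, 0.146 and 0.32). Those of ATG8E and ATG8F were also lost without any 1 of the ABA arrays, and that of ATG8F without ABA+JA replicate 2. The same comparison for ABA+SA called 0 of 8 (background 6.36%), as did ABA+SA against SA (background 2.46%) and ABA+JA against JA (background 0%). In each of these limma gave 0 genes an unadjusted p under 0.05, beside 21.5%, 9.86% and 3.01% of all probe sets. The hormone effect at 24 h minus that at 3 h was called for 2 of 8 genes with ABA+JA (background 8.38%), 1 with ABA+SA (3.87%), 1 with ABA (7.35%) and 0 with JA (0.317%) or SA (0.0615%). For JA and SA limma gave 3 and 0 genes an unadjusted p under 0.05, beside 12.6% and 1.49% of all probe sets. Beside ATG8H with both pairs the called gene was ATG8F, with a positive difference for ABA+JA (1.78 ± 0.38, adjusted p = 0.00839) and for ABA (1.59 ± 0.37, adjusted p = 0.0151). The ABA call was lost without ABA at 3 h replicate 1 (1.195, adjusted p = 0.0751), EtOH at 3 h replicate 2 (1.47, adjusted p = 0.0671) or EtOH at 24 h replicate 2 (1.55, adjusted p = 0.0569).

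ATG8G varied least. Its group means lay between 7.02 and 7.78 log2 units, a span of 0.76 that 68.2% of probe sets exceeded, and none of its changes passed the test. ATG3, the conjugating enzyme, spanned 1.46, with 8.49 and 8.37 in ABA+JA cells, 8.18 and 8.47 in ABA+SA cells, and 7.67 and 7.84 in EtOH cells at 3 h. Both pairs lay above the EtOH arrays without a call (0.68 ± 0.25 and 0.57 ± 0.25, limma adjusted p = 0.0651 and 0.156).

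Over the 12 group means, the ATG genes that moved most alike were ATG8C and ATG8D (Pearson r = 0.959) and ATG8C and ATG8E (r = 0.933), and ATG3 followed ATG8E at r = 0.918. ATG8H correlated with ATG8G at 0.841, ATG8B at 0.822, ATG3 at 0.739, ATG8E at 0.719, ATG8C at 0.54, ATG8D at 0.533 and ATG8F at 0.316. Both genes of a pair were read on the same arrays, and for ATG8H the 2 combined groups at 3 h lie far from the other 10. These r describe the 12 groups and were not tested.

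Many transcripts of these cells differed between 3 h and 24 h, and the arrays of one time were not all alike. On an axis where the mean of SA at 3 h is 0 and that of SA at 24 h is 1, taken over 3035 probe sets called between them with the autophagy and related lists left out, EtOH arrays of 24 h had places of 0.902 and 0.967, and those of 3 h 0.0794 and 0.145. The ABA arrays lay between, with 0.387 to 0.484 at 24 h and 0.457 to 0.573 at 3 h. The axis thus did not place the ABA arrays of 3 h before those of 24 h. The 4 combined arrays at 3 h lay at -0.171 to -0.119, and the ABA+SA arrays at 24 h at 0.634 and 0.719. JA replicates 1 and 2 at 24 h lay at 0.0822 and 0.65, and ABA+JA replicates 1 and 2 at 0.0993 and 0.32.

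The levels of ATG8E, ATG8F and ATG8H on some of these arrays are given beside their place. ATG8E read 8.45 on JA replicate 1 and 5.88 on JA replicate 2 at 24 h, and 8.03 and 7.05 on the ABA+JA replicates, so that the replicate nearer to 0 was the higher in each pair. The ABA arrays at 24 h read 5.36 to 6.11 for ATG8E, and the EtOH arrays of that time, further along the axis, read 6.37 and 6.15. ATG8F read 10.2 to 10.7 on the combined arrays at 3 h, the lowest on the axis, against 10.9 on ABA+JA replicate 1 of 24 h. The ABA arrays at 3 h, which lay further along the axis than the EtOH arrays of that time, were also those with less ATG8C, ATG8D and ATG8F. For ATG8H the single-hormone and EtOH arrays at 3 h lay between -0.026 and 0.573 on the axis and read 4.83 to 6.71. Among them the ABA arrays had the highest places and read 5.42 to 6.71, against 5.05 and 4.83 for EtOH at 0.0794 and 0.145. Both pairs at 3 h had the lowest places of all, -0.171 to -0.119, and the highest ATG8H, 8.82 to 9.15. EtOH and SA arrays of 24 h had the highest places, 0.902 to 1.035, and read 3.37 to 4.98. The part of this axis in the changes given above was not tested.

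**Figure D4:**
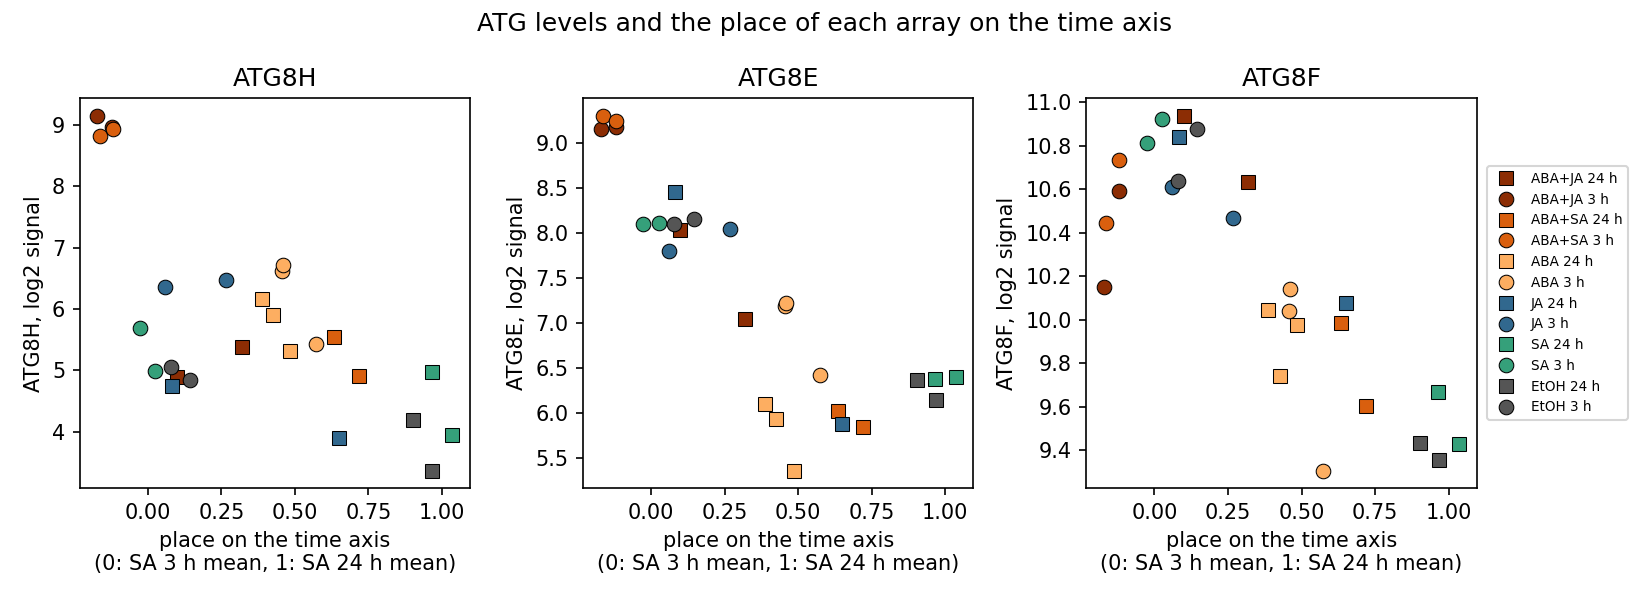
Log2 signal of ATG8H, ATG8E and ATG8F (vertical axes) against the place of each array on the time axis, where 0 is the mean of SA at 3 h and 1 that of SA at 24 h (horizontal axes), with squares for 24 h, circles for 3 h and colours for treatments. The 4 combined arrays at 3 h lie at -0.171 to -0.119 and read 8.82 or more for ATG8H, while the SA arrays at 3 h, at -0.026 and 0.026, read 5.69 and 4.99.

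A wider list of 43 autophagy genes had 20 with a probe set of their own, of which 12 are not among the 8 genes above and have 14 probe sets. With ABA+SA at 3 h 6 of these 14 rose and 0 fell, and with ABA+JA at 3 h 6 rose and 1 fell, against the backgrounds of 15.6% and 22.4% given above. The medians of the 14 were 0.54 and 0.73 log2 units, beside -0.02 and 0.06 over all probe sets. None of the 14 was called with ABA, SA or JA alone at 3 h (background 14.1%, 0.136% and 0.343%). Limma gave 0, 0 and 1 of them an unadjusted p under 0.05, beside 29.2%, 3.26% and 5.19% of all probe sets. At 24 h 2 of 14 were called with ABA (background 17.5%), APG8A and AT1G77890, and 1 with ABA+JA (background 8.7%), AT5G66930, shares below those of all probe sets. The count was 0 with ABA+SA, JA or SA (background 3.96%, 4.01% and 0.352%). For these limma gave 0, 2 and 0 of the 14 an unadjusted p under 0.05, beside 12.3%, 19.7% and 2.36% of all probe sets. In EtOH cells AT3G18770 and AT5G66930 were lower at 24 h than at 3 h (background 10.3%). The 2 calls in EtOH cells and that with ABA+JA were lost without any 1 of the 4 arrays compared, with adjusted p up to 0.315 and 0.246. That of AT1G77890 with ABA was lost without either EtOH array and without ABA replicate 1 or 3 (adjusted p up to 0.288).

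The ATG8 family member APG8A (AT4G21980, also called ATG8A) had the largest of these rises. It read 10.004 and 9.83 log2 units with ABA+JA, 10.1 and 9.86 with ABA+SA, 8.17, 8.87 and 8.93 with ABA, and 8.49 and 7.88 with EtOH at 3 h. The combined arrays lay above all others, and the ABA arrays overlapped the EtOH arrays. Its change was 1.73 ± 0.35 with ABA+JA (limma, adjusted p = 0.00204), 1.79 ± 0.35 with ABA+SA (adjusted p = 0.00218) and 1.31 ± 0.32 with ABA at 24 h (adjusted p = 0.00974). The 2 calls at 3 h were kept in each of the 4 fits that left out an array of their groups, with adjusted p up to 0.0394, and the call at 24 h was lost without EtOH replicate 2 (1.12, adjusted p = 0.114). APG8H, which is ATG8I (AT3G15580) and not ATG8H, was not called in any of these comparisons, with 0.41 ± 0.29 for ABA+JA and 0.38 ± 0.29 for ABA+SA at 3 h.

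The other list members that rose with both pairs at 3 h are printed by locus where the annotation gives no name. AT1G77890 (on 1 of its 2 probe sets) rose by 1.44 ± 0.27 log2 units with ABA+JA and 1.33 ± 0.27 with ABA+SA, AT3G61960 by 1.23 ± 0.29 and 1.15 ± 0.29, AT2G32760 by 0.95 ± 0.20 and 0.63 ± 0.20, and AT3G59950 by 0.93 ± 0.22 in each. In limma's fit their adjusted p lay at 0.00113 and 0.00297, 0.00595 and 0.0123, 0.00237 and 0.0397, and 0.00517 and 0.00689. The second probe set of AT1G77890 did not pass in either. AT3G53930 was called with ABA+JA (1.70 ± 0.49, adjusted p = 0.0185), and AT5G66930, listed as ATG101 and known as a subunit of the kinase complex that starts autophagosome formation, with ABA+SA (0.81 ± 0.26, adjusted p = 0.0454). Of the 2 probe sets of AT2G37840, 1 fell with ABA+JA (-0.87 ± 0.23, adjusted p = 0.0117) and the other did not pass. Of the calls in this set, those of AT1G77890 with both pairs and of AT2G32760 with ABA+JA were kept in all 4 fits that left out an array of the groups compared, and each of the others was lost without at least 2 single arrays, at an adjusted p of up to 0.229.

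**Figure D5:**
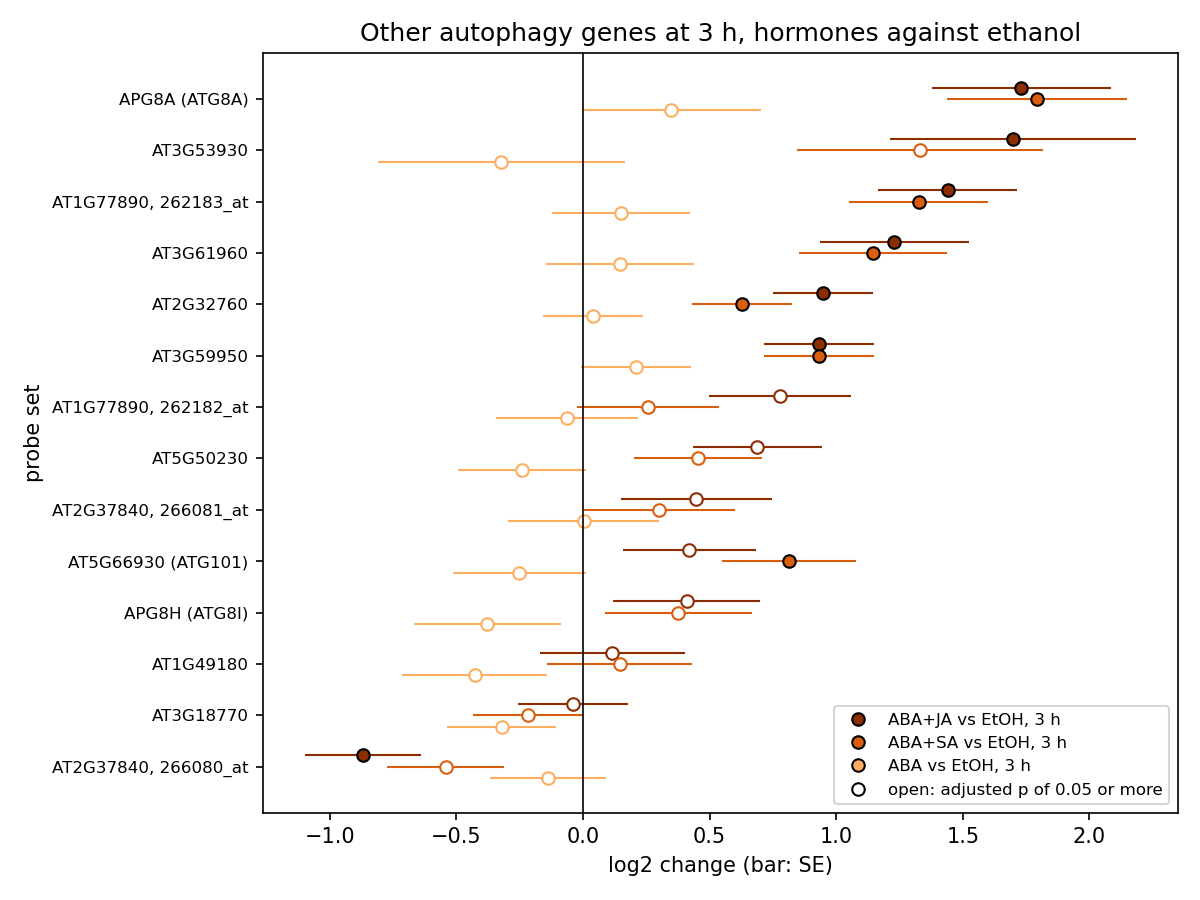
Change in log2 units (points, horizontal axis) with SE (bars) for 14 probe sets of other autophagy genes (vertical axis) at 3 h, for ABA+JA, ABA+SA and ABA against EtOH, with filled points for called changes. APG8A has the largest changes, 1.73 and 1.79 with the pairs, and none of the ABA points is filled.

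Few genes of the pathways around autophagy were measured under a name. RAPTOR1 and RAPTOR2, subunits of the TOR kinase complex that restrains autophagy, were not called against EtOH at either time. AKINBETA1, a regulatory subunit of the energy-sensing kinase SnRK1, was lower by 2.77 ± 0.65 log2 units with ABA at 3 h (limma, adjusted p = 0.0101; -2.43 and adjusted p = 0.0858 without ABA replicate 1, and also lost without either EtOH array) and lower by 2.30 ± 0.65 in EtOH cells at 24 h than at 3 h (adjusted p = 0.0341, lost without any 1 of the 4 arrays). Of the vacuolar processing enzymes, ALPHA-VPE rose by 2.09 ± 0.52 with ABA+JA and 2.04 ± 0.52 with ABA+SA at 3 h (adjusted p = 0.00834 and 0.0129), and each call was lost without EtOH replicate 1 and without 1 or 2 other arrays compared, at an adjusted p of up to 0.0593 and 0.0994. GAMMA-VPE was 2.58 ± 0.40 lower in EtOH cells at 24 h than at 3 h (adjusted p = 0.00144) and 1.72 ± 0.40 higher with ABA+JA than with EtOH at 24 h (adjusted p = 0.0134; 1.42 and adjusted p = 0.104 without ABA+JA replicate 1, and also lost without either EtOH array).

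The genes whose pattern over the 12 group means was most like that of ATG8H were sought among 2272 probe sets with 1 gene, a span of at least 2 log2 units and no ATG symbol. The 5 highest were AT1G73480 (r = 0.98), AT2G16790 (0.977), AT5G50100 (0.975), APG8A (0.969) and AT1G75170 (0.967), the last read by a probe set of the _s_at kind, which can match several transcripts. AT1G73480 had its highest mean, 9.82 log2 units, in ABA+JA cells at 3 h and its lowest, 5.02, in EtOH cells at 24 h, the same groups as ATG8H. The 5 most opposite were AT5G23690 (r = -0.983), SCPL45 (-0.977), a serine carboxypeptidase-like gene, AT4G30020 (-0.977), SPK1 (-0.975) and AT3G14120 (-0.972), all highest in EtOH cells at 24 h. In all, 118 of the candidates had r over 0.9, and since the same 2 groups at 3 h carry most of the span, these r describe which genes were high in those groups.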

How the data were processed

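Single-channel oligonucleotide arrays of 26 T87 cell samples gave the values. RMA is the method named in the submitters' processing notes; the authors deposited its values, whose range shows a log2 scale. No version of it was given. Probe sets were named through the platform's annotation and a reference table of gene names: 13436 of 22746 matched 1 gene of that table, 77 matched 1 gene outside it, 503 several and 8730 none. Of the ATG genes, those without a probe set of their own were not analysed here. Arrays read closely related ATG8 genes with short probes, and cross-reaction between them was not tested.

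Groups follow the titles. Replicates 2 and 3 of ABA at 3 h (r = 0.9975, SD of their difference 0.158 log2 units, against 0.343 to 0.735 in other pairs) were averaged. A linear model of 12 group means was fitted to the 25 columns in limma, with a spread shared over groups (13 residual degrees of freedom). Within each comparison limma's p-values were Benjamini-Hochberg adjusted over its 22746 probe sets, and "called" means adjusted p under 0.05; unadjusted counts use 0.05 too. Values beside changes are standard errors and beside levels SDs. Precision is limited by the number of arrays. The procedure was tested on simulated data. Software was R 4.3.3 and the packages limma 3.58.1 and statmod 1.5.0.

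The genes named are ATG8H, the other ATG genes, called members of 4 lists (autophagy, upstream kinases, sugar starvation, vacuolar proteases), and the 5 probe sets most like and most opposite to ATG8H. Members and lists were chosen with earlier results of these data known. The label-check genes, and uncalled list members with values, were chosen outside that rule after their values were seen.

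Alternatives were grouping by source name, the near-identical arrays kept apart, a replicate block, array weights, quantile scaling, median centring, a trended robust prior, a fit to the groups compared alone, a table without the dimmest 25% of probe sets, and a fit without each array in turn. A fit that drops JA replicate 1 and ABA+JA replicate 1 of 24 h was chosen after seeing the data.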

Additional observations from a re-analysis of the deposited data

Results flagged for a closer look

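Of the results given above, 9 are differences between the effects of a hormone under 2 conditions that passed limma's test of the difference itself.

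At 3 h the interaction of ABA with SA passed for ATG8H (2.44 log2 units, adjusted p = 0.044). The call was kept in 2 of the 9 fits that left out an array of these groups. Those 2 left out ABA replicate 2 or 3, whose near-identical partner stayed in the fit. The call was also lost in the fit to the groups alone (adjusted p = 0.0743) and with array weights (adjusted p = 0.0653). That of ABA with JA passed for ATG8E (2.55, adjusted p = 0.048), ATG3 (1.37, adjusted p = 0.0263), ATG8D (1.35, adjusted p = 0.0164) and ATG8C (1.24, adjusted p = 0.0384). Of 9 such fits the call was kept in 2 for ATG8E, 3 for ATG3, 7 for ATG8D and 2 for ATG8C. Each of these counts includes the 2 fits without ABA replicate 2 or 3. The ATG8E call was also lost without several arrays outside these groups, with the estimate unchanged. Among them were ABA at 24 h replicates 1 and 3 (limma adjusted p = 0.0583 and 0.0594). Without the same 2 arrays the ATG8H interaction of ABA with SA was lost too (adjusted p = 0.0534 and 0.0569). The estimates with SA for ATG8E (2.47) and ATG8C (1.26) were of like size and did not pass.

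The effect of hormones on ATG8H differed between 24 h and 3 h for ABA+JA (-2.76 log2 units, limma adjusted p = 0.0115) and ABA+SA (-2.49, adjusted p = 0.035). Of the 8 fits that left out an array of these groups the ABA+JA call was kept in 6 (adjusted p up to 0.0631) and the ABA+SA call in 2 (adjusted p up to 0.157). On ATG8F it differed for ABA+JA (1.78, adjusted p = 0.00839) and for ABA (1.59, adjusted p = 0.0151), kept in 8 of 8 and 7 of 10 such fits. In EtOH cells ATG8F fell to 9.39 ± 0.056 at 24 h, against 10.8 ± 0.17 at 3 h (SD, n = 2 each), and both differences contain that change.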

How the results depend on the processing

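The 6 ATG8H calls at 3 h of a pair against EtOH or a single hormone were kept in every alternative. No called ATG result changed sign. For ATG8H, calls were gained with ABA at 3 h when the near-identical arrays were kept apart (1.31, adjusted p = 0.0329), with ABA+SA at 24 h (1.45) and EtOH at 24 h against 3 h (-1.16) under array weights, and with ABA+JA at 24 h under median centring (1.52); the interaction of ABA and SA at 3 h (2.44) was lost in the fit to its groups alone and under array weights. Leaving out single arrays gave 0.99 to 1.72 for ABA at 3 h, 1.60 to 2.43 for ABA at 24 h, 0.94 to 1.77 for ABA+JA at 24 h, 1.82 to 2.78 for the interaction of ABA and SA at 3 h, -2.90 to -2.07 for the ABA+SA response at 24 h minus 3 h and -3.17 to -2.34 for that of ABA+JA.

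Numbers of the 8 genes called moved most. The fit to the groups alone gave 0 with ABA at 3 h, 2 with ABA+JA at 3 h, 0 with JA at 24 h and 0 with ABA+JA at 24 h. Array weights gave 1 with ABA, 4 with ABA+SA and 2 with ABA+JA at 3 h, 4 with ABA, 1 with JA and 1 with ABA+SA at 24 h, and 7 for EtOH at 24 h against 3 h. Grouping by source name gave 1 with ABA+SA and 2 with ABA+JA at 3 h. For ABA+JA at 3 h quantile scaling gave 2 and median centring 4. The trended prior gave 1 with JA and 1 with ABA+JA at 24 h. Dropping JA replicate 1 and ABA+JA replicate 1 of 24 h, an alternative added after seeing the data, gave 3 with ABA+JA at 3 h, 0 with JA at 24 h and 1 with ABA+JA at 24 h. Over single arrays left out, the number ran from 0 to 4 with ABA, 1 to 3 with ABA+SA and 1 to 3 with ABA+JA at 3 h, from 0 to 2 with ABA, 0 to 3 with JA and 1 to 4 with ABA+JA at 24 h, and from 0 to 4 for EtOH at 24 h against 3 h. The cause was not tested; fits without an array, and fits to the groups alone, hold fewer arrays.

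The labels name no culture or day that a replicate number shares, and the numbers were not taken as pairs: of 66 pairs of groups 32 correlated over 0.1 (-0.338 to 0.699), which does not settle whether some groups share one. With the replicate block 2 genes were called with ABA+JA at 3 h and 2 with ABA at 24 h. Median centring shifts all changes of a comparison alike, by up to 0.211 (ABA+JA at 3 h), by 0.178 with ABA+SA at 3 h, 0.164 with ABA, 0.189 with JA and 0.166 with ABA+JA at 24 h, and by -0.139 for EtOH at 24 h against 3 h; no called change turns sign, but 8 uncalled ones do, among them those of ATG8F with ABA+SA at 3 h (-0.17) and of ATG8D with ABA at 24 h (-0.11). The number of arrays limits all of this.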
